A study of Mus musculus with 12 samples.

Results

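The translation elongation factors of the adult mouse brain were followed through RNA, polysome-bound RNA and ribosome footprints. The group comprised 9 genes, chosen by name: Eef1a1, Eef1a2, Eef1b2, Eef1d, Eef1g, Eef1e1, Eef2, Eef2k and Eif5a. All 9 were present among the 20504 genes of the table of coding sequence (CDS) counts. The question asked of them was how the paralogs Eef1a1 and Eef1a2, and the factors that work with them, differ in translation, in excitatory neurons, and after inhibition of the kinase mTOR.

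The study sequenced 12 libraries from 6 Camk2a-RiboTag mice, 3 months old, in which Cre under the Camk2a promoter switches on an HA-tagged ribosomal protein Rpl22 in forebrain excitatory neurons. All 6 mice carried Camk2a-cre and the RiboTag allele, so no group lacked them. From the right frontal lobe of mice A and B, labelled Untreated and taken here as the mice that the methods describe as given vehicle by gavage, and of mice C and D, given AZD-8055 at 100 mg/kg by gavage 1 h before death, the authors made an RNA-Seq library and a ribosome footprint library each. From mice E and F, labelled Untreated and with no gavage stated, they made RNA-Seq libraries of the homogenate (input) and of the polysomes pulled down with the HA tag (IP). The footprints came from the whole lysate and not from the tagged neurons alone. Each group thus held 2 mice. AZD-8055 is an ATP-competitive inhibitor of mTOR.

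During elongation, eEF1A carries aminoacyl-tRNA to the ribosome as a GTP-bound complex, and the eEF1B subunits, encoded by Eef1b2, Eef1d and Eef1g, reload it with GTP. Eef2 encodes the factor that moves the ribosome along by a codon, and Eef2k encodes the kinase that phosphorylates and inactivates it. Eif5a encodes the hypusine-bearing factor that helps stalled ribosomes form peptide bonds, and Eef1e1 encodes a scaffold protein of the multi-tRNA synthetase complex, named for its likeness to eEF1 subunits. Eef1a1 is made in nearly every tissue, whereas Eef1a2 is the form of mature neurons and muscle. Many mRNAs of the translation machinery begin with a C followed by pyrimidines, the terminal oligopyrimidine (TOP) motif, and are known as translational targets of mTOR.

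The TOP motif is defined by the first transcribed bases. The annotated start sites of Eef1a1, Eef2 and Eef1b2, whose translation was lower after AZD-8055, are therefore shown beside that of Eef1a2. Eef1g, whose translation was also lower, had no entry and is not shown. Each line runs 5′ to 3′ over 25 bases of the RefSeq promoter table (GRCm38.p6, the assembly also known as mm10), with 10 bases before the annotated first transcribed base. Capitals mark every match to a C followed by 4 pyrimidines (C or T), read on the transcribed strand only, with overlapping matches merged.
Eef1a1: ctccgCCCTCTTCCcgagggtgggg
Eef2: aaggccgggcgttgacgtcagcggt
Eef1b2: ctgcagttccgccggaagtagccga
Eef1a2: cctggtctgcgttctcgctcactgg
The Eef1a1 window lies at chr9:78481710-78481734 on the minus strand, the Eef2 window at chr10:81176621-81176645 on the plus strand, the Eef1b2 window at chr1:63176821-63176845 on the plus strand and the Eef1a2 window at chr2:181157001-181157025 on the minus strand. The table held 14 entries for 7 of the 9 genes, while Eef1d and Eef1g had none. Only Eif5a and Eef2k had more than 1 entry, so the shares of entries below are not shares of genes. None of the 14 entries had the pattern at the annotated first base, against 2.51% of 32851 promoter entries. A share that low would mostly give no match among 14 entries. Starting within 10 bases either side of that base, 1 of the 14 entries matched, that of Eef1a1 with 4 overlapping matches, against 30.7% of all entries. All 4 began before the annotated first transcribed base, at positions −5, −4, −3 and −1 from it, so none began at the annotated start. For the cytosolic ribosomal protein genes, the class most like the elongation factors in function, the shares were 20.6% and 54.4% of 68 entries. Most ribosomal protein entries thus also lacked the pattern at the annotated first base. A match is a description of these letters, and its absence says only that they are not in this window. It does not show that an mRNA lacks a TOP motif. The paper names elongation proteins among those whose translation mTOR controls, and says that many such genes carry the motif.

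By the same assembly the protein-coding gene Eef1a1 spans chr9:78478453-78481724 and Eef1a2 spans chr2:181141758-181157015. Eef1a1 has many near-identical processed pseudogenes in the mouse genome and resembles Eef1a2 in its coding sequence. Only uniquely mapped reads were counted. The levels, translation efficiencies and ratios given for Eef1a1 are therefore uncertain to the extent that its reads map to several places. The loss may differ between the short footprints and RNA-Seq reads, and neither its size nor such a difference was tested. The CDS counts per library summed to between 3503873 and 15585831, with the footprint libraries at 3503873 to 9259938 and the others at 9309496 to 15585831. Levels are given as CPM, a gene's count relative to all counts of the library, on library sizes adjusted by the trimmed mean of M-values (TMM CPM), scaled once among the 8 libraries of mice A to D and once among the 4 of mice E and F, so that levels are set side by side only within each set. They are not corrected for gene length and are not compared between genes, apart from Eef1a1 and Eef1a2, whose coding sequences are almost equally long.

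After AZD-8055, 4 of the 9 genes were translated less relative to the typical gene, with no detected change in their RNA. Eef1a1, Eef2, Eef1g and Eef1b2 fell in translation efficiency (TE, footprints relative to RNA), by between 1.51-fold and 3.01-fold. The neuronal paralog Eef1a2 was not among them. In the same test 93 of 11797 genes were lower (0.788%), 35 of them by more than 2-fold (0.297%), and 9 genes were higher (0.0763%, none of the elongation factors). Lower by more than 2-fold were 2 of the 9, Eef1a1 and Eef2. Library scaling sets the typical gene near 0, and the median log2 changes of all tested genes were −0.0108 in TE and 0.000991 in footprints. A change in translation shared by most genes would therefore not show. In tissue of many cell types, fewer cells of a type and less RNA per cell cannot be told apart. None of the tested markers of excitatory or inhibitory neurons, astrocytes, oligodendrocytes, OPC, microglia or endothelial cells passed the test in TE, footprints or RNA, and none of the tested markers was at 0 in any library.

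Eef1a1 footprints stood at 1600 and 1450 TMM CPM in vehicle mice A and B and at 533 and 492 TMM CPM in mice C and D given AZD-8055. Its RNA-Seq level was 3381 and 3279 TMM CPM in mice A and B, and 3422 and 3309 TMM CPM in mice C and D. The footprint groups were thus far apart while the RNA groups overlapped. The log2 change in TE of Eef1a1 was −1.59 (SE 0.0839, adjusted p = 6.65e-08 by the quasi-likelihood test of edgeR, Benjamini-Hochberg adjusted), the third lowest of the 11797 genes. Its footprints alone fell by 1.57 on the log2 scale (SE 0.0694, adjusted p = 5.06e-06).

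Eef2, the translocation factor, had footprint levels of 1158 and 1159 TMM CPM in mice A and B and of 535 and 564 TMM CPM in mice C and D. In RNA-Seq it stood at 1917 and 1903 TMM CPM with vehicle, and at 2079 and 2001 TMM CPM with AZD-8055. Its footprints therefore fell below all vehicle values, and its RNA values with AZD-8055 both lay above those with vehicle. Its TE changed by −1.17 (log2, SE 0.0768, adjusted p = 7.74e-07), a 2.25-fold decrease. The RNA difference of 0.08 on the log2 scale (SE 0.0489) did not pass the test (adjusted p = 0.729, edgeR).

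The subunit genes of the exchange factor eEF1B all had negative estimates. Eef1g, the gamma subunit, had footprint levels of 205 and 196 TMM CPM with vehicle and of 98.1 and 104 TMM CPM with AZD-8055. Its TE changed by −0.95 (log2, SE 0.102, adjusted p = 4.96e-05). Eef1b2, the catalytic beta subunit, had footprint levels of 195 and 180 TMM CPM with vehicle and of 121 and 122 TMM CPM with AZD-8055, and a TE change of −0.60 (log2, SE 0.105, adjusted p = 0.00661). Both genes' footprint values with AZD-8055 lay below all vehicle values. Eef1d, the other catalytic subunit, had footprint levels of 79.9 and 86.2 TMM CPM with vehicle and of 61.9 and 64.7 TMM CPM with AZD-8055. These groups did not overlap either, but the TE change of −0.32 (log2, SE 0.114) did not pass the test (adjusted p = 0.499, edgeR).

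Without any one mouse, Eef1b2 kept a TE change of −0.51 to −0.67 (log2), but the call was not kept in every such fit. Its TE change was −0.51 without mouse A, −0.60 without mouse C and −0.58 without mouse D, with edgeR adjusted p = 0.233, 0.122 and 0.0879, and its footprint change without mouse A had an adjusted p = 0.0502. The Eef1a1, Eef2 and Eef1g calls in TE and footprints passed the test without any one of mice A to D. The footprint change of Eef1d, −0.38 (log2, SE 0.1, adjusted p = 0.156), passed in the fit of all 8 libraries (edgeR adjusted p = 0.0438).

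Eef1a2 footprints were measured at 2164 and 2203 TMM CPM in mice A and B and at 2068 and 2070 TMM CPM in mice C and D. Its RNA stood at 1872 and 1726 TMM CPM with vehicle and at 1867 and 1897 TMM CPM with AZD-8055. The footprint groups did not overlap, yet lay within a narrow range, and the RNA groups overlapped. The TE change of Eef1a2 was −0.14 (log2, SE 0.0747, adjusted p = 0.758, edgeR).

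Eif5a had footprint levels of 343 and 347 TMM CPM with vehicle and of 329 and 332 TMM CPM with AZD-8055, and a TE change of −0.13 (log2, SE 0.0959, adjusted p = 0.86). For Eef1e1, with 103 to 354 footprint counts per library, the TE change was −0.22 (log2, SE 0.172, adjusted p = 0.863, edgeR). Neither difference passed the test, and the larger SE of Eef1e1 went with its lower counts. The kinase gene Eef2k was the one elongation gene with a positive estimate. Its footprint level was 26.2 and 24.4 TMM CPM with vehicle and 29.9 and 32.6 TMM CPM with AZD-8055, from 99 to 228 counts per library, and its TE change of 0.32 (log2, SE 0.159) did not pass the test (adjusted p = 0.754).

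**Figure D1:**
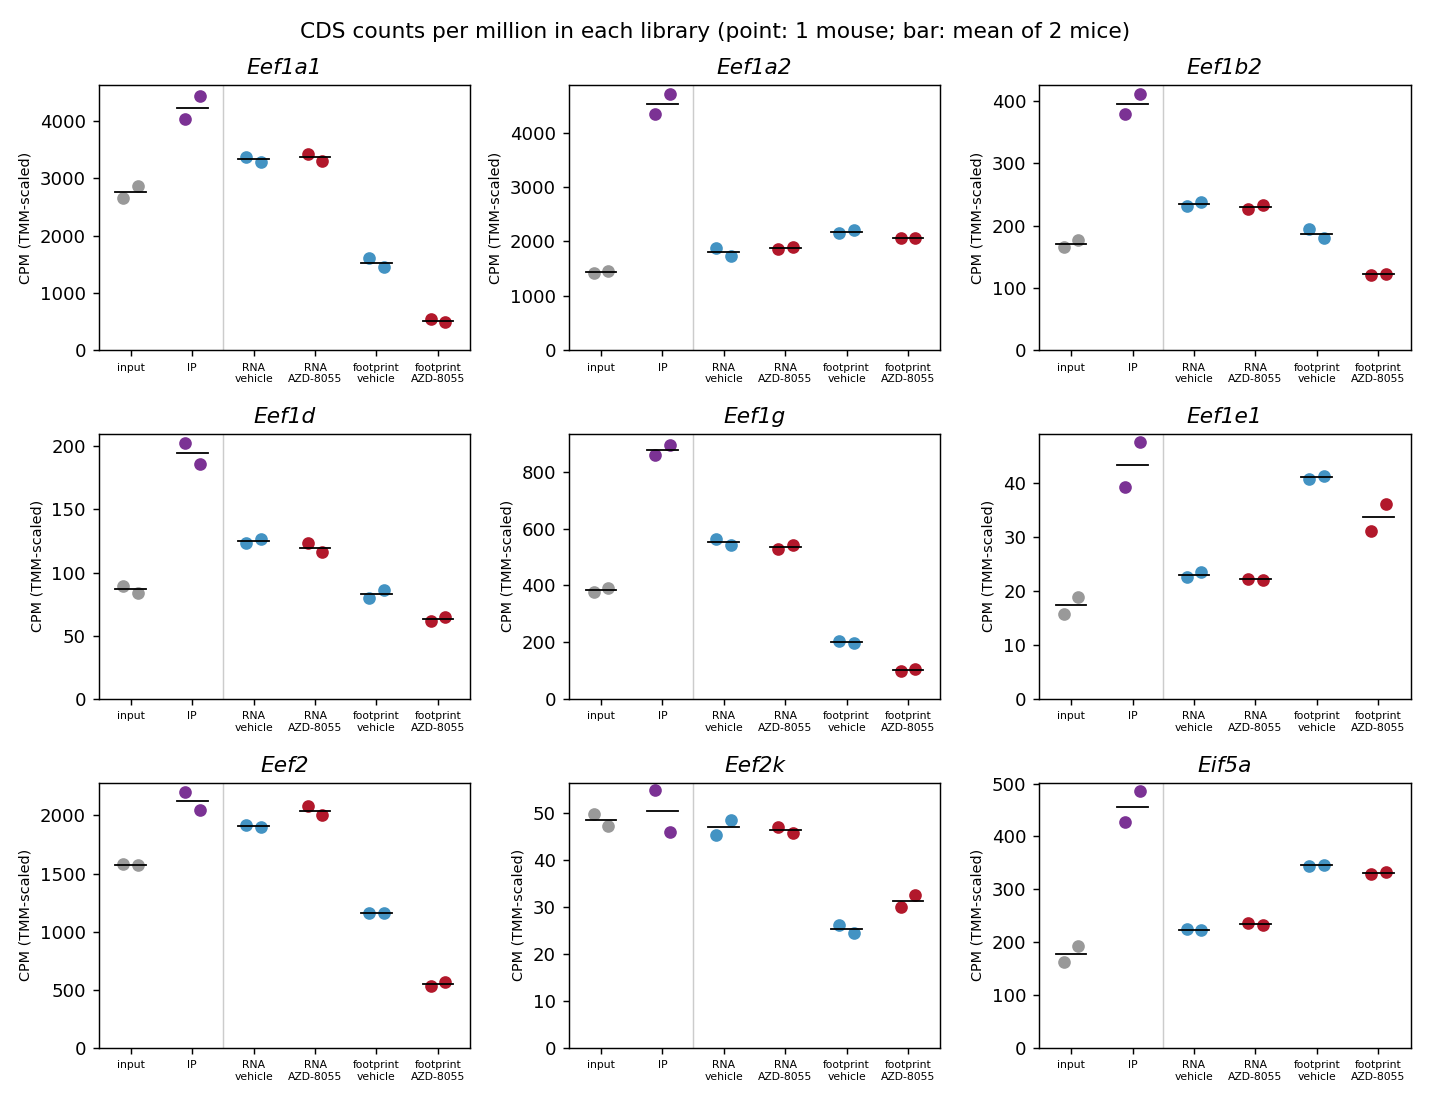
TMM-scaled CPM of CDS counts (linear axes from 0) of the 9 genes in the 12 libraries, 1 panel a gene, points for single mice and bars for the mean of 2 mice, with a vertical line between the separately scaled sets. Footprint points of Eef1a1, Eef2, Eef1g and Eef1b2 are lower with AZD-8055, from 1600 and 1450 to 533 and 492 for Eef1a1, while Eef1a2 footprints lie between 2068 and 2203.

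The footprints on their own gave the same 4 calls. In that test 105 of 10695 genes were lower (0.982%) and 5 were higher (0.0468%), and 4 of the 9 elongation genes were lower and none higher. In RNA-Seq, 11 of 12182 genes were lower (0.0903%) and 7 were higher (0.0575%), with none of the 9 among them. The 9 RNA changes ran from −0.08 for Eef1d to 0.08 for Eef2 on the log2 scale, with SEs of 0.045 to 0.121. Of the 9, 0 had an unadjusted p under 0.05 in edgeR and 0 were called by DESeq2, whereas 1004 of all genes tested had such a p in edgeR. Together the 9 genes took 0.852% to 0.874% of the CDS counts in RNA-Seq, 0.545% and 0.543% of the footprint counts with vehicle, and 0.36% and 0.367% with AZD-8055.

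**Figure D2:**
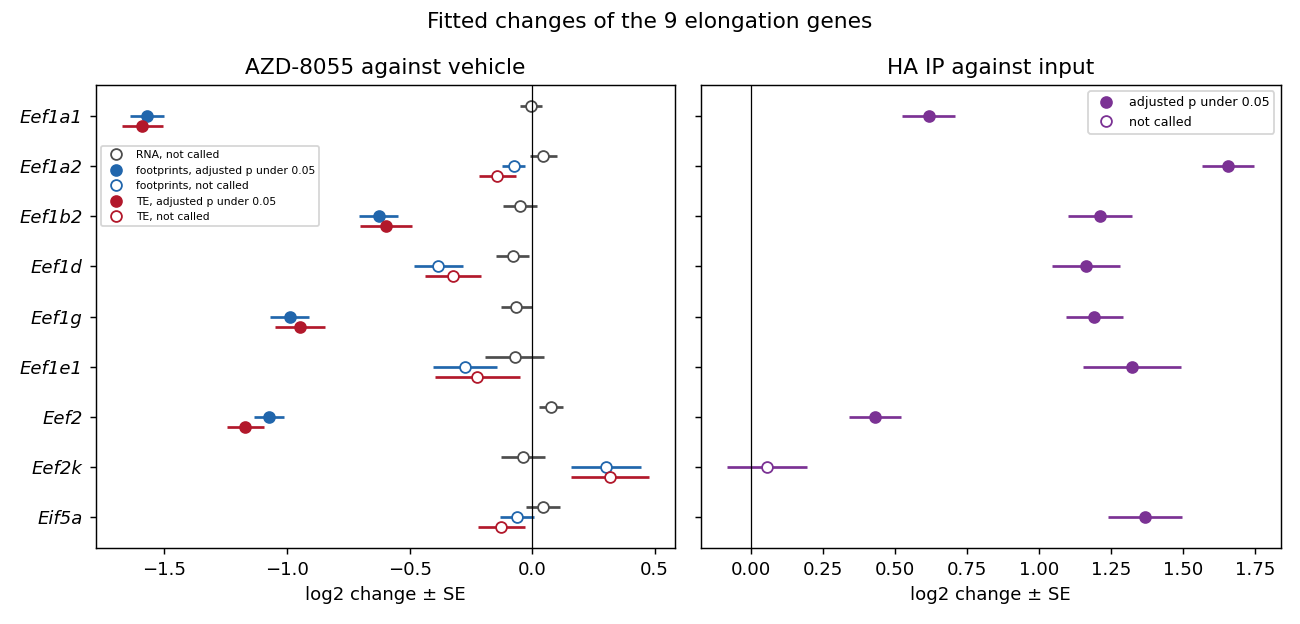
Fitted log2 changes with SE for the 9 genes, on the left for RNA, footprints and TE after AZD-8055 (2 mice against 2) and on the right for IP against input (2 mice each), filled where the adjusted p was under 0.05. On the left the filled points are the footprint and TE changes of Eef1a1, Eef2, Eef1g and Eef1b2, and on the right all genes but Eef2k are filled.

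Cytosolic ribosomal protein genes served as the reference for the elongation factors. Of 77 tested, 72 were lower in TE and none was higher, 31 were lower by more than 2-fold, and the median change was −0.90 (log2). The median of the 9 elongation genes was −0.32, and that of all genes tested was −0.01. The estimate for Eef1a1 lay below the lowest of the 77, Rps12 at −1.36, and that of Eef1a2 lay above the highest, Rplp2 at −0.35. These orders were not tested.

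Already with vehicle the elongation genes differed in TE, computed per mouse from DESeq2 size factors. Mean log2(TE) of mice A and B ran from −1.51 ± 0.0427 (SD, n = 2) for Eef1g to 0.79 ± 0.0657 (SD, n = 2) for Eef1e1. The log2(TE) of Eef1a1 was −1.10 for A and −1.25 for B, at the 11.9th percentile of 10882 genes. Eef1a2 had 0.19 and 0.28, at the 60.5th percentile, above the median of all genes at 0.02. The paralogs thus lay on opposite sides of the median in both mice.

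Between Eef1a1 and Eef1a2 the order upwards was Eef2k at −0.94 ± 0.181, Eef2 at −0.77 ± 0.0274, Eef1d at −0.63 ± 0.0163 and Eef1b2 at −0.37 ± 0.153 (log2 TE, SD, n = 2 each), and above Eef1a2 came Eif5a at 0.58 ± 0.0111. The values of neighbouring genes did not overlap, but Eef2k and Eef2 differed by less than the SD of Eef2k. In all, 6 of the 9 lay below the median of all genes. Of the 77 ribosomal protein genes 74 did, with a median of −0.96. With AZD-8055, Eef1a1 reached −2.71 and −2.82 in mice C and D, at the 0.909th percentile of 9906 genes, Eef1g reached −2.45 and −2.46, and Eef2 reached −1.98 and −1.89.

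**Figure D3:**
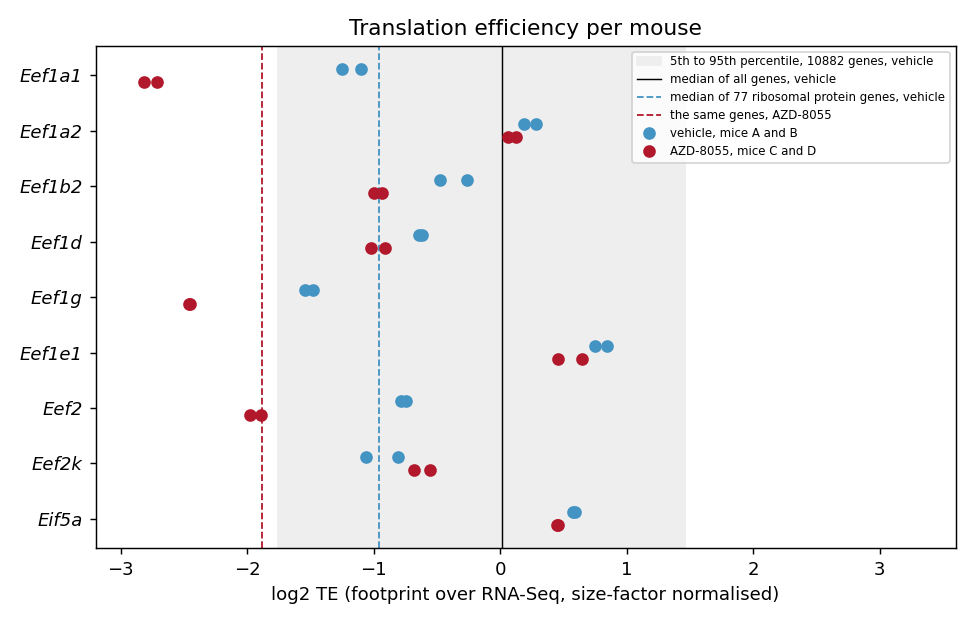
Log2 TE of the 9 genes in single mice, vehicle in blue and AZD-8055 in red, with the range from the 5th to the 95th percentile of 10882 genes shaded, the all-gene median as a solid line and the medians of 77 ribosomal protein genes as dashed lines. Eef1a1, Eef1g and Eef2 pass from inside the shaded range to below it, while Eef1a2 lies between 0.06 and 0.28.

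Within one library, the share of Eef1a2 in the CDS counts of both Eef1a paralogs needs no scaling between libraries. In the RNA-Seq libraries Eef1a2 held 35.6% (mouse A), 34.5% (B), 35.3% (C) and 36.4% (D) of the paralogs' counts, each with a 95% Wilson interval of at most 0.5 percentage points to either side, which covers counting error only. In footprints the shares were 57.5% (57 to 58) in mouse A and 60.3% (59.5 to 61.1) in mouse B, and 79.5% (78.6 to 80.3) in mouse C and 80.8% (80.1 to 81.5) in mouse D. Eef1a2 therefore made up the smaller part of the paralogs' counted RNA reads and the larger part of their counted footprints. How far unequal loss of reads that map to several places enters this contrast of library kinds was not tested. The footprint share of Eef1a2 was higher in both mice given AZD-8055 than in either vehicle mouse.

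On the log2 scale, the ratio of Eef1a1 to Eef1a2 footprints changed from −0.52 ± 0.12 to −2.01 ± 0.083 (SD, n = 2 each), a difference of −1.5. In RNA-Seq it was 0.89 ± 0.052 and 0.84 ± 0.05, and these groups overlapped. An exact two-sided permutation test of 2 against 2 mice cannot go below p = 0.333, the value it gave for footprints, and it gave p = 0.667 for RNA. In the fits across all genes, the TE change of Eef1a1 was lower than that of Eef1a2 by 1.45 (log2 difference −1.45, SE 0.112 from both genes). The TE of Eef1a2 exceeded that of Eef1a1 2.44-fold and 2.89-fold in mice A and B, and 7.11-fold and 7.35-fold in mice C and D.

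**Figure D4:**
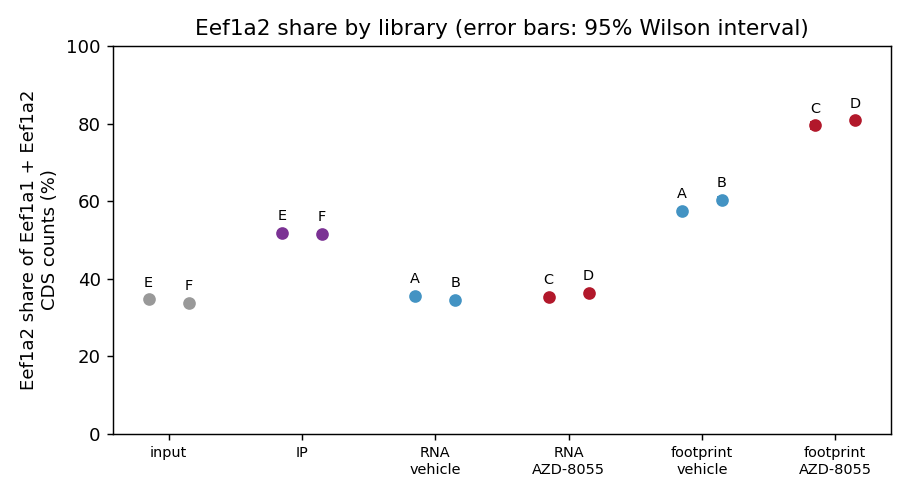
Share of Eef1a2 in the summed CDS counts of Eef1a1 and Eef1a2 in each of the 12 libraries (percent, axis from 0 to 100), letters for mice, with 95% Wilson intervals that are mostly smaller than the points. The share is between 33.8% and 36.4% in input and RNA-Seq, 51.8% and 51.6% in the IP, 57.5% and 60.3% in vehicle footprints, and 79.5% and 80.8% after AZD-8055.

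Relative to other genes, most elongation factor mRNAs had higher CDS counts in the IP of polysomes from Camk2a-expressing neurons than in the homogenate. Of the 9 genes, 8 were higher in the IP than in the input and none was lower, 6 of them by more than 2-fold. At the same threshold 4455 of 12211 genes were higher (36.5%) and 4766 were lower (39.0%), and 2493 were higher by more than 2-fold (20.4%). The count over 2-fold depended on the setting, since with exon counts 3 of the 9 genes were higher by more than 2-fold, Eef1a2, Eif5a and Eef1e1, and with scaling by total counts 1 was, Eef1a2. Eef1a2 led the 9, and Eef1a1 and Eef2 were the smallest of the 8 increases.

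Eef1a2 rose from 1414 TMM CPM in the input to 4348 TMM CPM in the IP of mouse E, and from 1461 to 4721 TMM CPM in mouse F. The log2 change was 1.66 (SE 0.0901, adjusted p = 2.43e-06 by edgeR), a 3.15-fold increase. Eef1a1 stood at 2665 and 2860 TMM CPM in the input of mice E and F and at 4040 and 4436 TMM CPM in the IP, a log2 change of 0.62 (SE 0.0909, adjusted p = 0.000261, edgeR). Both paralogs were higher in both IPs than in either input, Eef1a2 by the larger factor. Eef1a2 made up 34.7% and 33.8% of the paralogs' counts in the input and 51.8% and 51.6% in the IP, so that the log2 ratio of Eef1a1 to Eef1a2 fell by 1.04 (exact permutation p = 0.333, the smallest possible).

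The eEF1B subunit genes rose to like extents, Eef1b2 by 1.21, Eef1g by 1.19 and Eef1d by 1.16 (log2, SE 0.0987 to 0.119). Eif5a rose from 161 and 192 TMM CPM in the input of mice E and F to 427 and 486 TMM CPM in the IP (log2 change 1.37, SE 0.129). Eef1e1 rose by 1.33 (log2, SE 0.17), from 15.8 and 18.8 to 39.2 and 47.5 TMM CPM. Eef2 stood at 1578 and 1570 TMM CPM in the input and at 2200 and 2044 TMM CPM in the IP, a log2 change of 0.43 (SE 0.0902, adjusted p = 0.00209, edgeR). Eef2k, at 49.9 and 47.2 against 55 and 46 TMM CPM, overlapped between input and IP and did not pass the test (log2 change 0.06, SE 0.139, adjusted p = 0.721). The 77 ribosomal protein genes were all higher in the IP, with a median of 1.35, and the median of the 9 was 1.19.

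The Eef1a1 and Eef2 calls depended on the scaling or the counted region. Scaled by total counts alone, the median of all genes moved from −0.07 to −0.51 and the calls from 4455 higher and 4766 lower to 3022 higher and 6272 lower. With this scaling Eef1a1 was at 0.18 (adjusted p = 0.102), Eef2 at −0.01 (adjusted p = 0.936) and Eef2k at −0.38 (adjusted p = 0.0335, edgeR), all above the shifted median, so that 6 of the 9 genes were called higher and Eef2k lower. With exon counts in place of CDS counts Eef2 was at 0.09 (adjusted p = 0.447, edgeR). The median ratio of exon to CDS counts over 12216 genes was 1.84 and 1.97 in the IPs of mice E and F. In their inputs it was 1.47 and 1.49. The part of this difference in the IP changes was not tested.

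The IP checked against markers of its labelled cells as follows. Of the excitatory neuron markers reported, 5 were higher, among them Nrgn by 2.50 and Slc17a7 by 0.85 on the log2 scale, while Camk2a, the gene whose promoter drives the Cre, was lower (−0.66). All 6 inhibitory neuron markers were lower, as were 5 of 5 astrocyte, 5 of 5 oligodendrocyte, 2 of 2 OPC, 4 of 4 endothelial and 3 of 4 microglia markers. In CPM on total counts, without the TMM adjustment, summed astrocyte markers stood at 776 to 879 in the input and at 70.6 to 79.9 in the IP, and summed oligodendrocyte markers at 1959 to 2088 and at 146 to 154. On the same unadjusted scale, summed inhibitory neuron markers stood at 974 to 997 CPM in the input and at 147 to 214 CPM in the IP. These summed markers were lower in the same comparison in which most elongation genes were higher, and the part of cell composition in those changes was not tested. Of all neurons' markers 3 were higher and Syt1 was lower (−1.25), and the muscle markers Acta1 and Myh1 were higher by 1.62 and 1.64, with a summed level of the muscle list, again unadjusted, of 16.1 to 19 CPM in the input and 36.9 to 38.2 CPM in the IP.

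The enzymes and partners around the elongation factors were examined as 8 lists. In TE, footprints and RNA after AZD-8055, no tested gene of any of these lists passed the test in either direction. The median TE changes of the lists ran from −0.17 to 0.11 on the log2 scale. In the IP against input, several of them were called, to be read against the 36.5% of all genes that were higher and the 39.0% that were lower there.

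The hypusine that Eif5a carries is made by Dhps and Dohh, which rose in the IP by 1.54 and 2.00 (log2), whereas the Eif5a paralog gene Eif5a2 fell by 2.16. Of 3 tested lysine methyltransferases of eEF1A, 2 were higher, N6amt2 by 2.03 and Mettl10 by 0.85. Of 5 genes for the diphthamide of Eef2, 3 were higher, Dph5 by 1.5, Dph3 by 0.82 and Dph2 by 0.51. Of the partners of Eef1e1 in the synthetase complex, Aimp2 and Aimp1 were higher by 1.62 and 1.41, and the third gene of that list, the valyl-tRNA synthetase gene Vars, was at 0.11 and was not called.

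Among 11 genes for kinases, calmodulins and phosphatases that act on Eef2k or Eef2, 4 were higher and 6 lower in the IP. The calmodulin genes Calm2 and Calm3 rose by 1.79 and 1.18, and the phosphatase gene Ppp2cb rose by 1.10. Of 8 termination, rescue and recycling genes, 2 were higher and 3 lower, with Pelo, which acts on stalled ribosomes, higher by 1.98, and with Gspt1 and Gtpbp2 at −0.66 and −0.71. Of 5 mitochondrial elongation genes, Tsfm and Tufm were higher by 2.10 and 1.45 and Guf1 fell by 1.65. Of 6 selenocysteine elongation genes, 3 were higher and 2 lower, with Sephs2 at 1.09, Eefsec at 1.11 and Secisbp2l at −1.73.

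Across the 12 libraries, the pattern of Eef1a1 was most like that of Eef2, with Pearson's r of 0.995 in log2(TMM CPM + 1) among 12014 genes, for which all 12 libraries were scaled together. Snx5 (0.991), Rps20 (0.987), Zfp51 (0.986) and Rps4x (0.983) came next. The 5 genes most like Eef1a2 were Coro1a, Mrpl21, Bcas2, Psmc3 and Lamtor4 (0.995 to 0.996). Of the other elongation genes, Eef1g (0.973), Eef1d (0.856), Eef1b2 (0.85) and Eef2k (0.753) followed Eef1a1 more closely than Eef1a2, and Eif5a (0.891) and Eef1e1 (0.787) followed Eef1a2 more closely than Eef1a1. Eef1a1 and Eef1a2 had an r of 0.247 with each other. These values describe 12 libraries of 4 kinds from 6 mice, with libraries of a kind alike and the same libraries used for every gene.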

How the data were processed

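The authors trimmed the reads, removed rRNA reads with Bowtie2, aligned the rest with TopHat2 (mm10) and counted them with HTSeq. They deposited whole-number counts per gene, over CDS for all 12 libraries and over exons for the 8 libraries other than footprints. Here edgeR 4.0.16 (TMM, quasi-likelihood test, Benjamini-Hochberg over all genes tested, threshold 0.05) was fitted to genes with a mean of at least 37 CDS counts per library. TE was tested as an interaction over 8 libraries, the other comparisons over 4. TE per mouse used DESeq2 1.42.0 size factors and at least 75 counts. Scripts were tested on simulated data. Libraries with the same letter in the labels came from 1 brain: their deviations correlated (r = 0.223 for A and B, 0.23 for C and D, 0.467 for E and F). The members and lists were chosen with earlier results of these data known. Named were all 9 members, up to 3 genes per list and comparison past the test with the smallest adjusted p, and the 5 genes most like Eef1a1 and Eef1a2, besides marker and ribosomal protein genes given as reference. Vars completes its list. Levels per coding length were not computed. 1 item of the marker lists is not reported here.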

Additional observations from a re-analysis of the deposited data

How the results depend on the processing

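The TE, footprint, RNA and IP calls of the 9 genes, 4, 4, 0 and 8, were 4, 4 or 5, 0 and 7 or 8 in the alternatives other than leaving out a mouse, and 3 or 4 in TE and footprints without any one mouse (the IP with 1 mouse left gives no test). With the mouse as a replicate block, TE had 147 called genes against 102 and the IP 10006 against 9221, and the block changed no call of the 9 genes. The count of TE calls was 56 to 77 without any one mouse. The 110 footprint calls became 264 without a filter, 179 in the fit of 8 libraries, and 64 to 837 without any one mouse, 837 without C and 265 without D. The 18 RNA calls became 28 with DESeq2, 29 with total counts, 78 without a filter, 11 in the fit of 8 libraries, and 13 to 36 without any one mouse. The RNA change of Eef1a1, near 0 (−0.0221 to 0.0202 without any one mouse), turned positive without a filter (0.00122), with exon counts (0.0203), in the fit of 8 libraries (0.0153) and without mouse A or D. Those of Eef2k (−0.0845 to 0.0171 without any one mouse) and of Eef1a2 (−0.00817 to 0.108) changed sign without B, and that of Eef2k also with exon counts (0.0156). In the IP, Eef2 turned to −0.00854 with total counts, and Eef2k to −0.382 with total counts, −0.0522 at a mean of at least 100 counts and −0.195 with exon counts. The median log2 TE of the 9 genes with vehicle, relative to the median of all genes, was −0.648, and −0.723 at a minimum of 200 counts, which tests fewer genes. The change in the log2 ratio of Eef1a1 to Eef1a2 in the IP was −1.04, and −0.967 with exon counts. Of all values for single genes, 367 kept their direction and their side of the threshold or moved within the spread, 19 values without a test moved by more than the spread and 12 changed sign. In all 7 calls of single genes were lost and 2 were gained, 1 of each with a change of sign. Causes were not tested unless stated. With 2 mice a group, precision is limited most for Eef1e1 and Eef2k, at 99 to 354 footprint counts per library. Levels per coding length were not run.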
